A study of Mus musculus with 6 samples.

Results

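A set of 46 genes of synaptic vesicles, regulated exocytosis and synaptic scaffolds was compared between mouse cell lines immortalised from the hypothalamus. Members were taken by gene symbol from a list. The list was drawn up with earlier results of these data known, so it was not tested as a whole. All probe sets that the platform annotation names for 1 of these genes alone were used. Probe sets were found for 43 of the 46 genes, among 12393 genes tested in all. Sv2b, Sv2c and Rims1 had no such probe set and were not analysed here. The lines are A_212, derived from adult hypothalamus, and N_46, derived from embryonic hypothalamus. Both are labelled as expressing neuropeptide Y (Npy), and both carry the SV40 T-antigen, a viral oncoprotein used to immortalise cells, so neither is a culture of postmitotic neurons. RNA of 3 plates per line was hybridised to 1 Affymetrix mouse array each, 6 arrays in all. Each age of origin is represented by 1 line, so the age cannot be told apart from any other feature of the lines, and the p-values measure the spread between plates.

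Neurons and endocrine cells release transmitters and peptides when a vesicle fuses with the plasma membrane. SNARE proteins on the vesicle (VAMPs) and on the target membrane (syntaxins and the Snap25 family) zip together to drive fusion. RAB3 and RAB27 GTPases bring vesicles to the membrane, priming factors and complexins set the SNAREs, synaptotagmins sense calcium, and NSF with its SNAP adaptors takes the spent SNARE complexes apart. In the hypothalamus the same machinery serves small synaptic vesicles and the large dense-core vesicles that hold neuropeptides. Some isoforms, such as those of Snap25, Syt1 and Rab3a, are typical of neurons, whereas others, such as those of Snap23, Vamp3 and Napa, occur in most cells.

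The deposited values are on a log scale, taken here as base 2, and were centred, with the median of every probe set across the 6 arrays at 0. They carry differences between arrays and no level. Whether either line expressed a gene is therefore unknown from these values, and a difference near 0 does not show that a gene was on in both. Where the lines do not overlap, centring also places the innermost arrays of a single probe set at mirror values around 0. Values below are centred log2 values per array, and differences are A_212 minus N_46, each with its standard error (SE) as limma fitted it, so that a positive difference is higher in A_212. A gene was called where limma's p, adjusted by Benjamini-Hochberg across the 12393 genes, was under 0.05. In bulk RNA, fewer cells of a kind and less RNA per cell cannot be told apart.

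Of the 43 genes, 16 were higher in A_212, 7 were lower in A_212 and 20 were not called. Over all genes tested, 39.2% were called, 18.3% higher and 20.9% lower in A_212, beside 53.5% of the 43 genes. The median difference was 0.02 over the 43 genes and -0.06 over all genes. Arrays of the lines did not overlap for 27 of the 43 genes (62.8%), against 51.1% of all genes, and all 23 called genes were among the 27. A difference of at least 2-fold was found for 1 of the 43 genes, Rab3b, against 5.83% of all genes. The share of higher genes among those called was 69.6%, and it became 80.0%, from 16 higher and 4 lower, when the arrays were set to the same median or to the same 75th percentile, and 85.0%, from 17 higher and 3 lower, when the median difference of each chromosome was taken out. These settings moved all genes the same way, with a higher share of 46.7% among all called genes, 53.1% at the same median, 50.05% at the same 75th percentile and 56.4% with chromosome medians taken out. The count of genes lower in A_212 was 4 in place of 7 without A_212 replicate 1, without N_46 replicate 2 or without N_46 replicate 3. Over all genes it also fell in these fits, from 2586 to 2269, 2017 and 1986. N_46 replicate 1 deviated most of the N_46 arrays from the mean of its line over all genes. Without it, 18 of the 43 genes (41.9%) were called, 13 higher and 5 lower, against 37.6% of all genes in the same fit. Over the fits without 1 array, 39.5% to 46.5% of the 43 genes were called, against 31.5% to 41.35% of all genes.

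**Figure D1:**
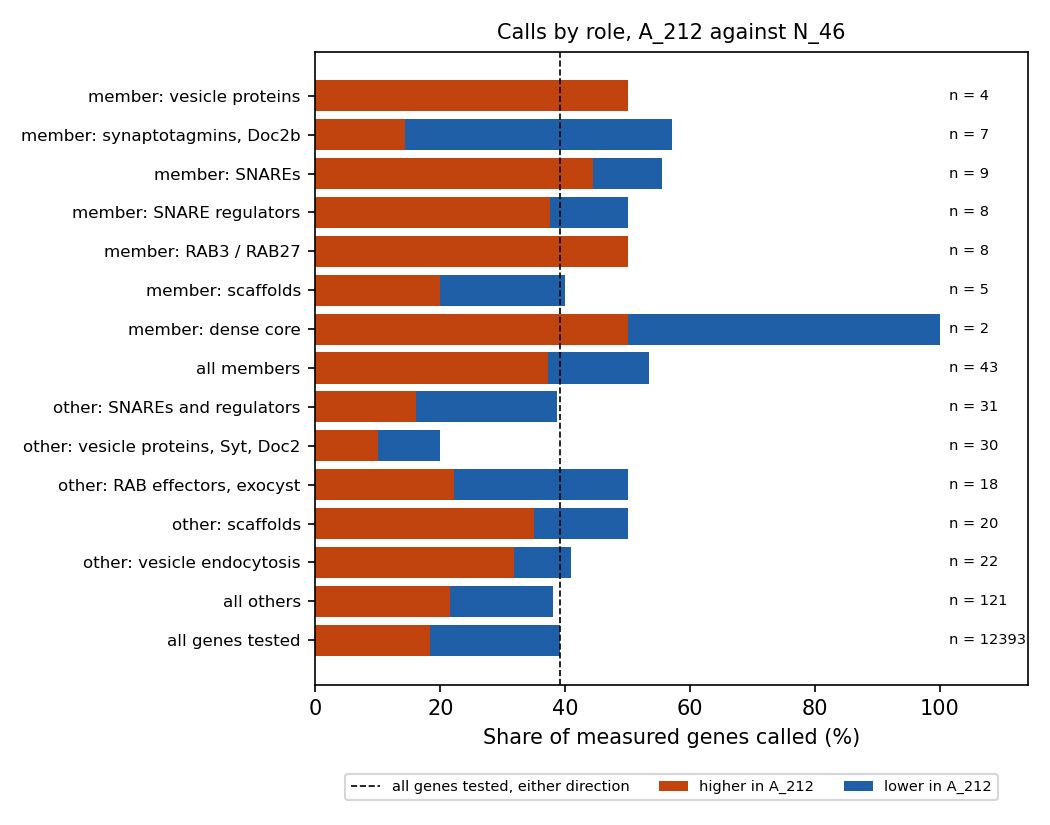
Share of the measured genes called in each group, in percent, split into genes higher in A_212 and genes lower in A_212. The dashed line marks the 39.2% called among all genes tested, and the number of genes measured stands at the right of each bar. Calls of vesicle proteins and of RAB3 and RAB27 genes were all higher in A_212, and 3 of the 4 calls among synaptotagmins and Doc2b were lower.

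Promoter windows of the genes were searched for motifs known from neuronal and general promoters. RefSeq windows of assembly GRCm38.p6, from 250 bases before to 50 bases after an annotated start, were found for 33 of the 43 genes, in 42 windows. Both strands were searched, after the values had been seen, for the cAMP response element TGACGTCA, for the GC box GGGCGGG and for the RE1 element, the binding site of the neuronal gene repressor REST, with up to 3 mismatches to its consensus. The cAMP response element was found in 2 of the 42 windows, those of Syn1 and Napa, and in 1.79% of all 32851 windows. The RE1 element was found in 1 of the 42 windows, that of Syn1 with 1 mismatch, and in 0.0944% of all windows. The GC box was found in 17 of the 42 windows (40.5%), and in 25.6% of all windows. The windows of Syn1 (chrX:20920869-20921168, minus strand) and Napa (chr7:16098330-16098629, plus strand) are shown because they hold these matches and belong to 2 of the genes higher in A_212. Capitals mark the RE1 match and then the cAMP response element in Syn1, which do not overlap, and the cAMP response element in Napa.
Syn1: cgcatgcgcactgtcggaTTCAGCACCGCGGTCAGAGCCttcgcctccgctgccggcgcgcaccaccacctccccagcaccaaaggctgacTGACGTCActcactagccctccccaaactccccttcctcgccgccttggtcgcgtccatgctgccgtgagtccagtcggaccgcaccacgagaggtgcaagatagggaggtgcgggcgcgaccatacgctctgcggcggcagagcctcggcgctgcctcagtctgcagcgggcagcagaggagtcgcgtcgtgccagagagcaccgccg
Napa: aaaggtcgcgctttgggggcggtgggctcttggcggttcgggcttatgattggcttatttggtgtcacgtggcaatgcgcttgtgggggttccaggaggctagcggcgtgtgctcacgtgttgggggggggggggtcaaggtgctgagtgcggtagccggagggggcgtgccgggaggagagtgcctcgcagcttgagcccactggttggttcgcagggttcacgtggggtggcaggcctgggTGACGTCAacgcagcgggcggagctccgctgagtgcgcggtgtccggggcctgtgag
The matches in Syn1 begin 232 and 159 bases before the annotated start, and that in Napa begins 7 bases before it. A match is a run of letters in the reference genome, and binding was not measured.

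Among proteins of the vesicle membrane and its surface, 2 of 4 genes were higher in A_212 and 2 were not called. Syn1 encodes synapsin 1, which tethers synaptic vesicles to the cytoskeleton. It had values of 0.31, 0.21 and 0.53 on the A_212 arrays, against -0.35, -0.35 and -0.21 on the N_46 arrays. The lines did not overlap, and the difference was 0.66 ± 0.09 (SE, n = 3 arrays per line, limma adjusted p = 0.00024), a 1.58-fold difference. Sv2a, a glycoprotein of synaptic and secretory vesicles, had 0.22, 0.12 and 0.10 in A_212, against -0.53, -0.10 and -0.45 in N_46. It was higher in A_212 by 0.51 ± 0.11 (limma adjusted p = 0.0036), with the N_46 arrays spread more widely than those of A_212. The paralog Syn2 differed by -0.14 (95% interval -0.29 to 0.01). Synaptophysin (Syp), the most used marker of synaptic vesicles, differed by -0.04 (-0.26 to 0.19), and its probe sets lay at -0.19 and 0.12.

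Synaptotagmins and the related calcium sensor Doc2b went both ways, with 1 of 7 genes higher in A_212, 3 lower and 3 not called. Syt4, a synaptotagmin of peptide-containing vesicles, had values of 0.58, 0.69 and 0.35 in A_212, against -0.37, -0.56 and -0.35 in N_46. Its difference was 0.97 ± 0.10 (limma adjusted p = 2.4e-05), a 1.96-fold difference, and its probe sets gave 1.26 and 0.68. Doc2b, a soluble high-affinity calcium sensor, had -0.47, -0.47 and -0.32 in A_212, against 0.38, 0.30 and 0.36 in N_46. Its difference of -0.77 ± 0.07 (limma adjusted p = 1.6e-05) was the lowest of the 43 genes, and its probe sets differed in size, at -0.33 and -1.20. Syt11 and Syt13, both synaptotagmins that do not act as calcium sensors, were lower in A_212 by smaller amounts. Syt11 differed by -0.27 ± 0.08, and its call was lost without N_46 replicate 2 (limma adjusted p = 0.066). Syt13 differed by -0.24 ± 0.08, and its call was lost without A_212 replicate 1 or 2 or N_46 replicate 1 or 3 (limma adjusted p = 0.063 to 0.14). Syt1, the sensor of fast transmitter release, differed by -0.06 (95% interval -0.23 to 0.10), Syt5 by 0.03 (-0.15 to 0.21) and Syt7, a sensor of slower release, by -0.12 (-0.29 to 0.05).

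**Figure D2:**
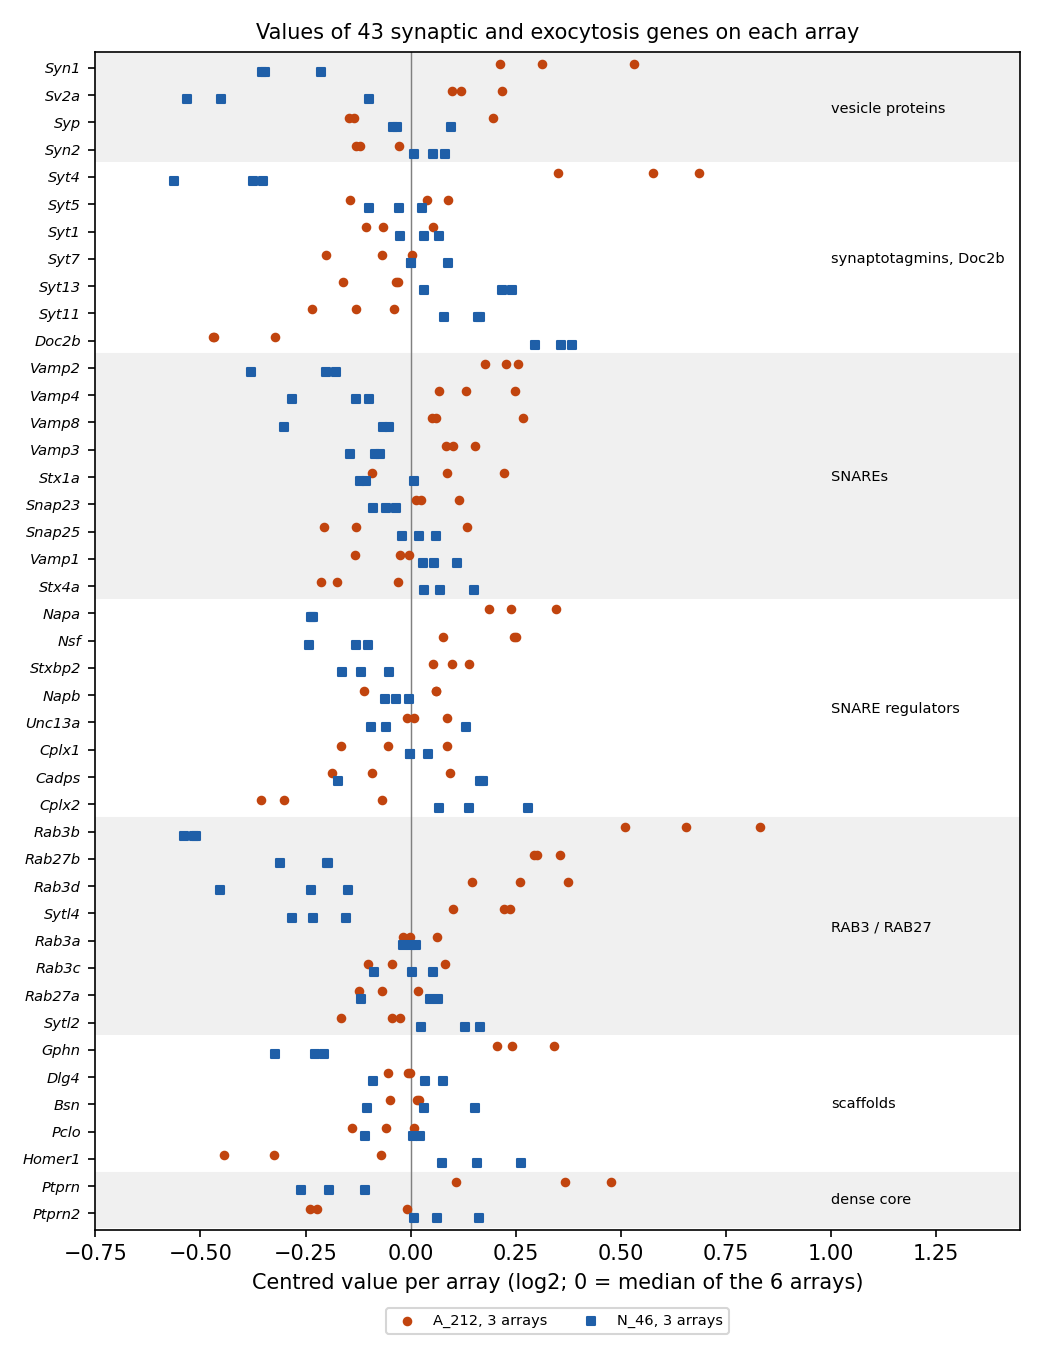
Centred log2 value of each of the 43 genes on each of the 6 arrays, by role, with circles for the 3 A_212 arrays and squares for the 3 N_46 arrays. Rab3b, Syt4, Doc2b and Syn1 have the largest differences between the means of the lines, while arrays of the lines mix for Syp, Syt1, Snap25, Rab3a and Dlg4.

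SNARE genes were called in 5 of 9 cases, 4 higher and 1 lower in A_212. All 4 higher genes encode VAMPs. Vamp2, the main vesicle SNARE of synapses and dense-core vesicles, had 0.26, 0.23 and 0.18 in A_212, against -0.38, -0.20 and -0.18 in N_46. Its difference was 0.47 ± 0.08 (limma adjusted p = 0.00069), with no overlap of the lines, and its probe sets gave 0.25 and 0.69. Vamp4, a SNARE of the trans-Golgi network and endosomes, differed by 0.32 ± 0.08 (limma adjusted p = 0.0095), with probe sets at 0.02, 0.35 and 0.59. The widely expressed Vamp3 (0.21 ± 0.07) and Vamp8 (0.27 ± 0.09), a SNARE of endosomes and granules, were called by a narrow margin. The 5 probe sets of Vamp3 ranged from 0.13 to 0.43. Only that at 0.43, whose design lets it hybridise to more than 1 transcript, was called when tested by itself. The call of Vamp3 was lost when any 1 array other than A_212 replicate 3 was left out (limma adjusted p = 0.060 to 0.083), and that of Vamp8 when any 1 of the 6 arrays was left out (0.051 to 0.16). Vamp1, a vesicle SNARE of spinal cord and some other neurons, differed by -0.12 (95% interval -0.28 to 0.04) without being called.

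Target-membrane SNAREs showed 1 call among 4 genes. Stx4a, a plasma membrane syntaxin of many cell types, differed by -0.22 ± 0.08, and its call was lost without A_212 replicate 1 or 3 or N_46 replicate 2 or 3 (limma adjusted p = 0.078 to 0.16). Its value was -0.09 (adjusted p = 0.40) when the median difference of each chromosome was taken out. The neuronal syntaxin Stx1a differed by 0.14 (95% interval -0.05 to 0.34), and with chromosome medians taken out it was higher in A_212 (0.26, limma adjusted p = 0.048). Snap25, the neuronal partner of Stx1a and Vamp2, had -0.13, 0.13 and -0.21 in A_212, against 0.02, 0.06 and -0.02 in N_46. The A_212 arrays lay on both sides of the N_46 arrays, and the difference was -0.09 (-0.29 to 0.12). Its widely expressed paralog Snap23 differed by 0.11 (-0.04 to 0.26), with probe sets at 0.05, 0.11 and 0.18.

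Of 8 genes that assemble, prime or take apart SNARE complexes, 3 were higher in A_212, 1 was lower and 4 were not called. The 3 higher genes were Napa, Nsf and Stxbp2. Napa, which encodes the adaptor alpha-SNAP, had 0.24, 0.35 and 0.19 in A_212, against -0.23, -0.23 and -0.24 in N_46. Its difference was 0.49 ± 0.07 (limma adjusted p = 0.00030), and its probe sets gave 0.48 and 0.50. Nsf, the ATPase that alpha-SNAP recruits, had 0.25, 0.25 and 0.08 in A_212, against -0.24, -0.10 and -0.13 in N_46. It differed by 0.35 ± 0.08 (limma adjusted p = 0.0052), with probe sets at 0.34 and 0.35. The brain paralog of Napa, Napb, differed by 0.04 (95% interval -0.13 to 0.20), and its 5 probe sets lay between -0.04 and 0.12. Napg, which encodes the related gamma-SNAP, is not a member and was singled out after its values were seen. It was lower in A_212, with a difference of -0.27 ± 0.08 (limma adjusted p = 0.018) and no overlap of the lines.

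Regulators that act before fusion gave smaller or opposite values. Cplx2, a complexin that clamps and promotes fusion, had -0.30, -0.36 and -0.07 in A_212, against 0.14, 0.07 and 0.28 in N_46, a difference of -0.40 ± 0.09 (limma adjusted p = 0.0058). The lines did not overlap. Its paralog Cplx1 differed by -0.06 (95% interval -0.23 to 0.12). Stxbp2, a syntaxin-binding protein of secretory cells outside the nervous system, differed by 0.21 ± 0.07, and its call was lost when any 1 of the 6 arrays was left out (limma adjusted p = 0.053 to 0.11). Its probe sets, whose designs let them hybridise to more than 1 transcript, lay at 0.05, 0.26 and 0.32. Only that at 0.32 was called when tested by itself. Unc13a, the main priming factor of synaptic vesicles, differed by 0.04 (-0.14 to 0.21), and Cadps, a priming factor of dense-core vesicles, by -0.12 (-0.36 to 0.13).

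**Figure D3:**
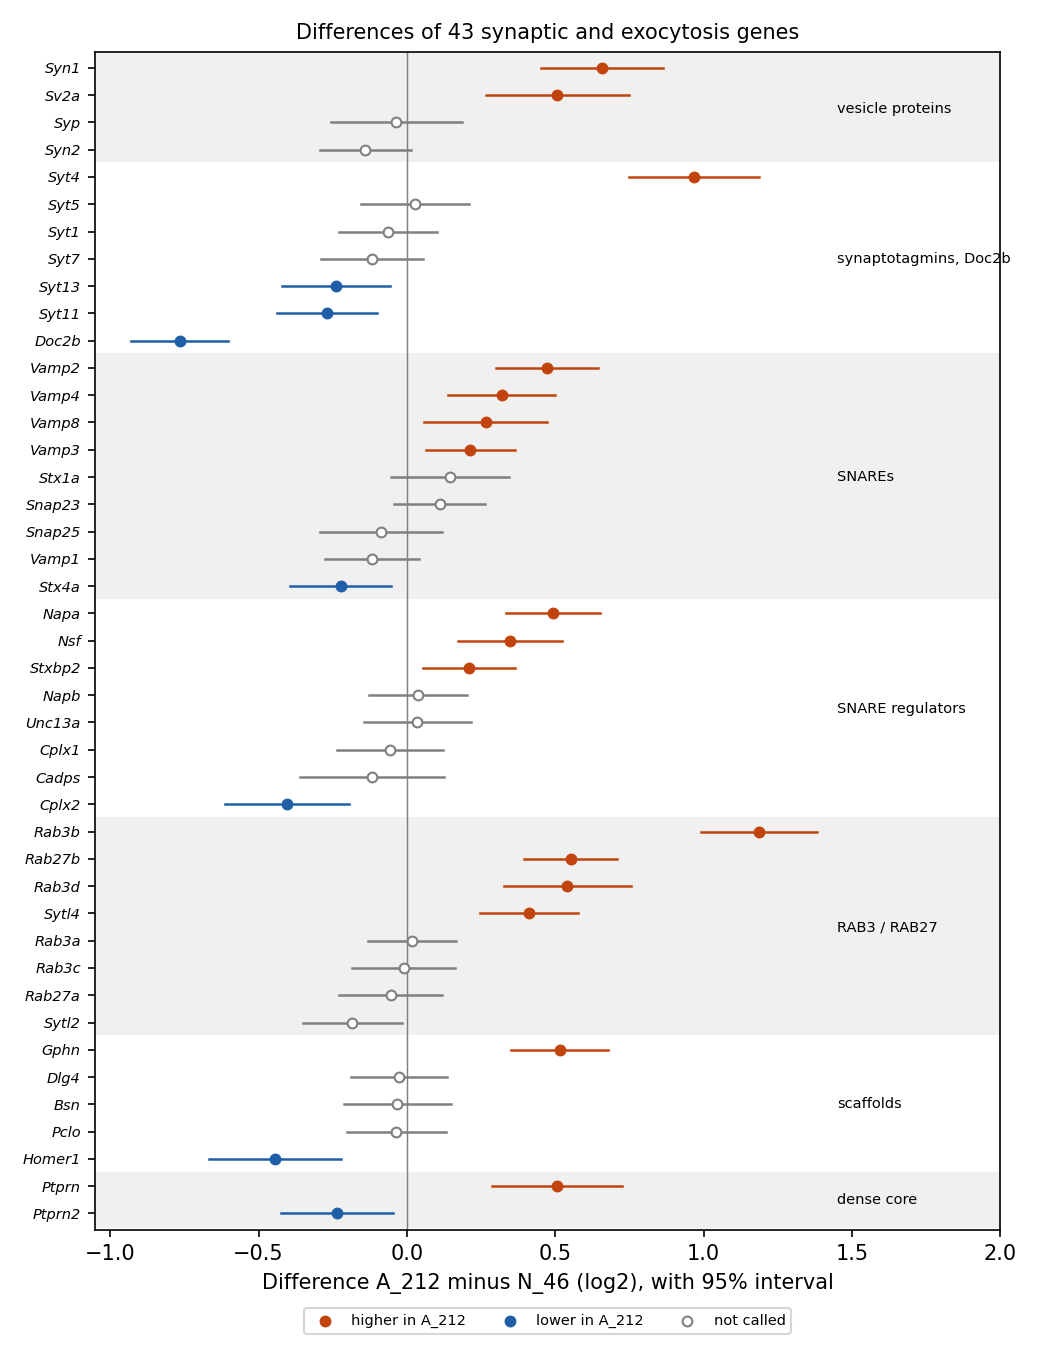
Difference A_212 minus N_46 of each of the 43 genes on the log2 scale, by role, with its 95% interval from the limma fit. Filled points are called genes and open points are not called. Rab3b (1.19) lies highest and Doc2b (-0.77) lowest, and the 20 open points lie between -0.18 and 0.14.

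Of 8 genes of RAB3, RAB27 and their effectors, 4 were higher in A_212 and 4 were not called. None was lower in A_212 in limma (0 genes, and 1, Sytl2, at an unadjusted p under 0.05). Rab3b, a RAB3 isoform of endocrine cells and some neurons, had 0.51, 0.83 and 0.65 in A_212, against -0.54, -0.51 and -0.51 in N_46. The A_212 arrays were spread more widely than the N_46 arrays but lay far above them. The difference was 1.19 ± 0.09 (limma adjusted p = 2.1e-06), a 2.28-fold difference read by 1 probe set and the largest of the set. Rab27b, a RAB of secretory granules, had 0.36, 0.30 and 0.29 in A_212, against -0.31, -0.20 and -0.20 in N_46. It differed by 0.55 ± 0.07 (limma adjusted p = 0.00012), with probe sets at 0.82 and 0.29. Rab3d, the RAB3 isoform of exocrine and other secretory cells, had 0.15, 0.38 and 0.26 in A_212, against -0.45, -0.24 and -0.15 in N_46. Its difference was 0.54 ± 0.10 (limma adjusted p = 0.0011), and its 4 probe sets ranged from 0.07 to 1.07.

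Sytl4 encodes granuphilin, an effector that docks granules through RAB27 and RAB3. It had 0.10, 0.24 and 0.22 in A_212, against -0.28, -0.15 and -0.23 in N_46, a difference of 0.41 ± 0.07 (limma adjusted p = 0.0013). This call rested on 1 of its 2 probe sets, at 0.93, while the other lay at -0.11, and with plain probe sets alone the difference was -0.11 (adjusted p = 0.37). Sytl4 was the only called gene of the set with probe sets of both signs. Rab3a, the main RAB3 of brain synapses, differed by 0.02 (95% interval -0.13 to 0.17), Rab3c, another brain isoform, by -0.01 (-0.18 to 0.16) and the RAB27 effector Sytl2 by -0.18 (-0.35 to -0.02) with an adjusted p of 0.078 in limma. Rab27a, the RAB of melanosomes and cytotoxic granules, differed by -0.06 (-0.23 to 0.12), with probe sets at 0.17, -0.05 and -0.29. With plain probe sets alone, Rab27a was lower in A_212 (-0.29, limma adjusted p = 0.021).

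Scaffolds of the synapse gave 1 call each way among 5 genes. Gephyrin (Gphn), the scaffold of inhibitory synapses, which also serves molybdenum cofactor synthesis in other cells, had 0.34, 0.24 and 0.20 in A_212, against -0.23, -0.21 and -0.32 in N_46. It differed by 0.51 ± 0.07 (limma adjusted p = 0.00027), and its probe sets gave 0.46 and 0.56. Homer1, a scaffold of excitatory synapses that links glutamate receptors to calcium stores, had -0.07, -0.44 and -0.33 in A_212, against 0.07, 0.26 and 0.16 in N_46. Its difference was -0.44 ± 0.10 (limma adjusted p = 0.0050), with A_212 replicate 1 nearest to the other line and all 3 probe sets below 0, from -0.66 to -0.30. Dlg4, the main scaffold of excitatory postsynaptic densities, differed by -0.03 (95% interval -0.19 to 0.13). The giant active zone proteins bassoon (Bsn, -0.03, -0.21 to 0.15) and piccolo (Pclo, -0.04, -0.20 to 0.13) were not called either.

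The paralogs Ptprn and Ptprn2 encode phosphatase-like proteins of the dense-core vesicle membrane. Ptprn had 0.48, 0.11 and 0.37 in A_212, against -0.19, -0.11 and -0.26 in N_46. It was higher in A_212 by 0.51 ± 0.10 (limma adjusted p = 0.0020), and A_212 replicate 2 lay nearest to the N_46 arrays. Ptprn2 differed by -0.24 ± 0.08, and its call was lost when any 1 array other than A_212 replicate 3 was left out (limma adjusted p = 0.069 to 0.15). Each of the pair was read by 1 probe set, and the difference between the paralogs was not tested.

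**Figure D4:**
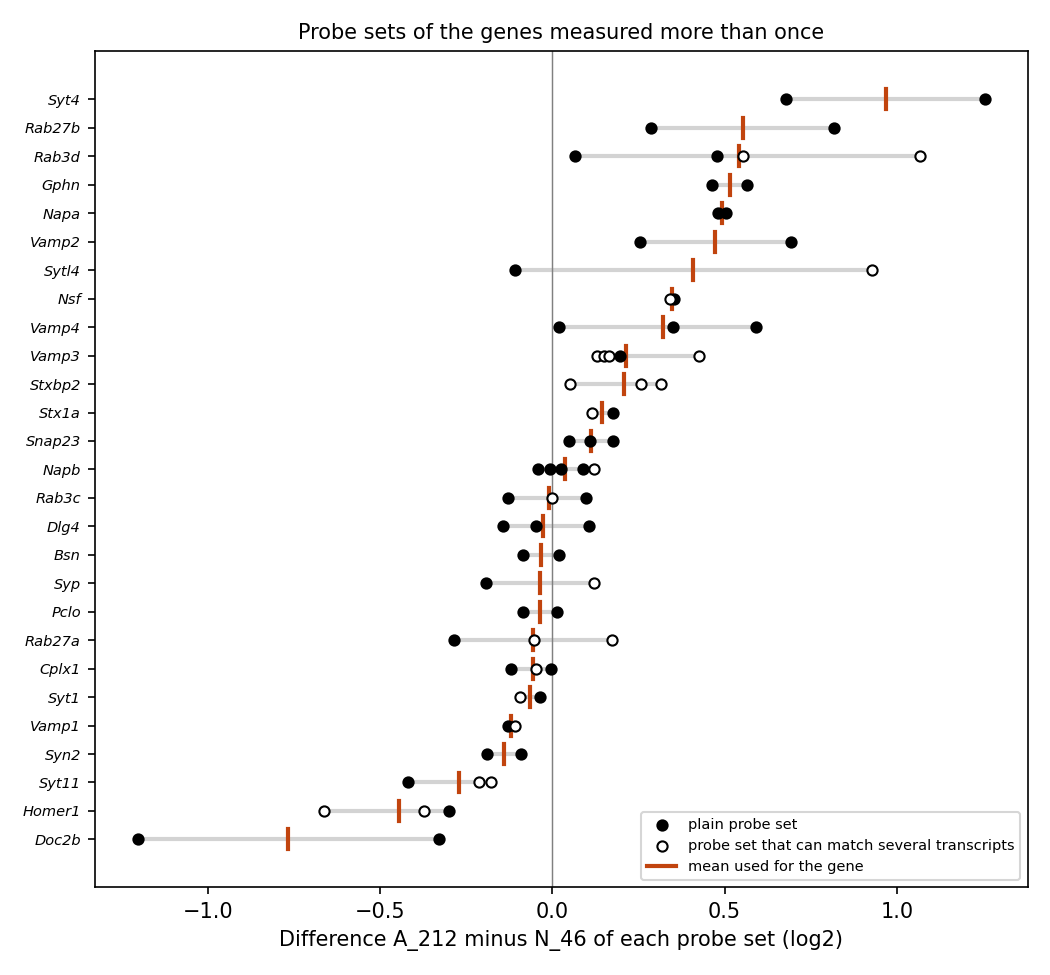
Difference A_212 minus N_46 of every probe set, on the log2 scale, for the 27 genes read by more than 1 probe set. Filled points are plain probe sets, open points are probe sets whose design lets them hybridise to more than 1 transcript, and the bar is the mean used for the gene. Napa, Nsf and Gphn have probe sets that lie close together, while Rab3d, Sytl4, Doc2b and Vamp4 have probe sets far apart.

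Each probe set was also tested by itself. Of 87 probe sets, 31 (35.6%) were called, 23 higher and 8 lower in A_212, against 37.4% of all probe sets. At least 1 called probe set was found for 20 of the 43 genes, against 23 called on gene means, while over all genes the same counts were 5246 and 4853. The 20 include Rab27a, which was not called on its mean. Syt13, Stx4a, Vamp8 and Ptprn2, each read by 1 probe set, were called as genes but not in this fit (limma adjusted p = 0.053 to 0.063). Probe sets of both signs occurred in 8 of the 27 genes with more than 1 probe set, and 7 of the 8 were not called. Differences of the 20 genes not called lay between -0.18 and 0.14, and their 95% intervals between -0.36 and 0.34. For 4 of these 20 genes (Syn2, Snap23, Vamp1 and Sytl2) the arrays of the lines did not overlap. Over all genes, called or not, this held for 51.1%, and the share among all genes not called was not counted.

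Beyond these members, 121 of 169 listed genes of the same pathways were measured, of which 26 were higher in A_212, 20 were lower and 75 were not called. Their share of calls was 38.0%, beside 39.2% of all genes. Among SNAREs and their regulators, 5 were higher and 7 lower of 31, with the apical and neuronal syntaxin Stx3 (0.80 ± 0.09) and Vamp7 (0.64 ± 0.08) on one side and the priming factor Unc13b (-1.27 ± 0.12) and Vamp5 (-0.66 ± 0.09) on the other. Other vesicle proteins, synaptotagmins and related genes gave 3 calls each way among 30 genes, with Scamp1 (0.49 ± 0.09) higher and synaptogyrin 2 (Syngr2, -0.53 ± 0.07) lower. Among 18 RAB effectors, exchange factors and exocyst subunits, 4 were higher and 5 lower. The RAB3 regulator Rab3gap2 (0.43 ± 0.08) was among the 4, and Rab3ip, an exchange factor for RAB8 (-0.84 ± 0.09), among the 5.

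Among 20 other scaffolds, 7 were higher and 3 lower in A_212. Rims2, the active zone paralog of Rims1, had -1.29, -0.88 and -0.85 in A_212, against 0.80, 0.89 and 0.96 in N_46. Its difference of -1.89 ± 0.11 (limma adjusted p = 4.7e-07) was the lowest of the 121 genes, and neuroligin 2 (Nlgn2, 0.80 ± 0.07), an adhesion protein of inhibitory synapses, was the highest of the scaffolds. Of 22 genes of vesicle endocytosis, 7 were higher and 2 lower. Dynamin 1 (Dnm1), the GTPase that pinches off vesicles at nerve terminals, had 0.80, 0.69 and 0.73 in A_212, against -0.93, -0.67 and -0.75 in N_46. It was higher by 1.52 ± 0.08 (limma adjusted p = 2.3e-07), and endophilin A3 (Sh3gl3, -0.76 ± 0.10) was lower.

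Cell type markers were read in the same fit, and their part in the results above was not tested. The share of markers called was 68.8% for fibroblasts and mesenchyme, 37.5% for astrocytes, 33.3% for neurons, 25.0% for neuroendocrine secretion, 14.3% for microglia and 0% for oligodendrocytes, beside 39.2% of all genes. Of 12 neuronal markers, 2 were higher in A_212, 2 were lower and 8 were not called, with array means from 0.10 to 0.17 in A_212 and from -0.19 to -0.08 in N_46. Stmn2 (3.09) and Tubb3 (1.13) were higher and Map2 (-0.25) and Gap43 (-0.24) lower. The median difference of the 12 was -0.08, of opposite sign to the difference in array means. Of 16 fibroblast and mesenchymal markers, 9 were higher, 2 were lower and 5 were not called, with array means from 0.75 to 0.95 in A_212 and from -0.87 to -0.74 in N_46. Of 8 markers of neuroendocrine secretion, 1 was higher (Pam, 1.22), 1 was lower (Scg5, -0.44) and 6 were not called. Array means ran from 0.01 to 0.10 in A_212 and from -0.08 to -0.0045 in N_46. Differences were below 0 for 5 of the 8, and their median was -0.05, of opposite sign to the difference in array means. Of 8 astrocyte markers, 1 was higher (Aldoc, 0.83), 2 were lower (Slc1a3, -2.47, and Gja1, -1.30) and 5 were not called. Array means ran from -0.29 to -0.15 in A_212 and from 0.18 to 0.23 in N_46, while the median difference of the 8 was -0.04. Of 7 microglia markers, 1 was higher (Tmem119, 3.26) and 6 were not called, with array means from 0.08 to 0.30 in A_212 and from -0.21 to -0.13 in N_46. The other 6 all had differences below 0, and the median of the 7 was -0.11, so the higher array means in A_212 came from Tmem119. Of 7 oligodendrocyte markers, 0 were called in limma, and 1, Mbp (-0.19), was lower at an unadjusted p under 0.05, with array means from -0.11 to 0.06 in A_212 and from -0.03 to 0.12 in N_46. Centring leaves no level, so no marker can be called absent in either line.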

How the data were processed

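RNA of 3 plates each of A_212 and N_46, grown to 70% confluence in 5% serum per the labels' protocols, was measured on Affymetrix arrays of 22690 probe sets. The authors deposited RMA values, per the submitters' processing notes, which give no version. No source used here states the log base. The deposited values were taken as log2 because RMA works on that scale, and the centring (median 0 per probe set within 1e-06) was found in the file and is described in no source used here. RMA gives all arrays a common distribution, which hides any change in RNA per cell. The number of arrays limits the precision.

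Of the probe sets, 20380 had 1 gene in the platform annotation, 691 several, 1555 none and 64 were controls. The value of a gene was the mean of its probe sets named for it alone. A further probe set that names Vamp1 with another gene was left out. The lines were compared by limma's two-sided moderated test (lmFit, then eBayes) on all 6 arrays, with Benjamini-Hochberg adjustment across 12393 genes, and the procedure was checked on simulated data. Alternatives were a replicate block, weighting of arrays, other scalings, leaving out each array, the median of probe sets, plain probe sets alone, robust eBayes, single probe sets, treat, and removal of chromosome medians with RefSeq chromosomes (GRCm38.p6). Same-numbered plates of the lines did not deviate together (r = -0.03, -0.01 and 0.09 across genes), so the main fit has no block.

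The members and lists were chosen with earlier results of these data known, so no list was tested as a whole. All measured members are named, with up to 3 genes each way per other list and up to 2 per marker list, of which the text gives some. Napg and the called markers Map2, Gap43 and Aldoc are named beyond this rule. Motifs were chosen after the values were seen. Tables were prepared with pandas 2.3.3 and numpy 2.4.6 in Python 3.11.15, plots were drawn with matplotlib 3.10.9, and limma 3.58.1 was run in R 4.3.3.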

Additional observations from a re-analysis of the deposited data

How the results depend on the processing

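Under the 16 alternatives, 578 of 682 values of single members kept their direction and their side of the threshold, and 74 values lost the call, 23 of them in treat. In every alternative other than treat that covered them, 15 called members kept both (Rab3b, Rab3d, Rab27b, Syn1, Sv2a, Syt4, Doc2b, Vamp2, Vamp4, Napa, Nsf, Cplx2, Gphn, Homer1 and Ptprn). Of these, Rab3b, Syn1, Sv2a, Cplx2 and Ptprn were read by 1 probe set, so the median of probe sets could not change their values. Plain probe sets alone could not change Rab3b, Sv2a, Cplx2 and Ptprn either, and did not cover Syn1, which has no plain probe set. Treat against a 2-fold bound called 0 members (0 higher and 0 lower in A_212, 1 at an unadjusted p under 0.05), 2 of the other exocytosis and synapse genes (1 higher and 1 lower) and 406 of all genes (268 higher and 138 lower), since it asks for a larger difference. Members lower in A_212 numbered 4 with arrays set to the same median or the same 75th percentile, 3 after removal of chromosome medians, and 4 to 6 when 1 array was left out. Over all genes, 2586 were lower in the main fit, 2207 at the same median, 2397 at the same 75th percentile and 1955 after removal of chromosome medians. With 1 array left out, 1986 to 2858 of all genes were lower. The median difference of the members was 0.0539 with arrays set to the same median and 0.10 with chromosome medians taken out. Of the 27 values that changed sign, 26 belonged to members not called, and the exception was Sytl4 (-0.11 with plain probe sets alone). With arrays set to the same median, Syp was 0.0019, Rab3c 0.0267, Bsn 0.0052, Pclo 0.00094 and Dlg4 0.0096. Rab3c was 0.0077 at the same 75th percentile, Bsn 0.0105 with array weights and Dlg4 0.0174 with the median of probe sets. With chromosome medians taken out, Syt1 was 0.12, Cplx1 0.0543, Rab3c 0.0304 and Pclo 0.0744. When 1 array was left out, Syp ranged from -0.15 to 0.0234, Syt5 from -0.0197 to 0.0965, Cplx1 from -0.12 to 0.0043, Unc13a from -0.0080 to 0.10, Rab3a from -0.0073 to 0.0326, Rab3c from -0.0625 to 0.0300, Bsn from -0.0981 to 0.0313, Pclo from -0.0775 to 0.0018 and Dlg4 from -0.0764 to 0.0073. By design, the scalings shift the differences of all genes by the same amount, and removal of chromosome medians shifts all genes of a chromosome alike. The cause of the other changes was not tested. With the replicate block, 20 members were called (15 higher and 5 lower), 46 of the other genes and 4834 of all genes, and Syt13 (adjusted p = 0.053), Stxbp2 (0.050) and Ptprn2 (0.067) lost their calls in limma. The plates share only a number, and A_212 replicate 1 deviated most like N_46 replicate 2 (r = 0.12). A filter on dim probe sets and another background correction were not run, since the values hold no level and scanner files were not used here.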
